A study of Mus musculus with 45 samples.

Results

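Ileum of mice that lack FADD in the intestinal epithelium was compared between loss of ZBP1 and loss of MLKL. The members were the 5 arrays titled FADD IEC-KO Zbp1 -/- and the 5 titled FADD IEC-KO Mlkl -/-, 10 of 45 arrays in all, and every difference below is the first group minus the second on the log2 intensity scale. IEC-KO stands for deletion in intestinal epithelial cells. Thus mice of both groups lack Fadd in those cells and keep it elsewhere, while Zbp1 -/- and Mlkl -/- are named as knockouts without a cell type. The labels give neither the Cre driver nor the sex. All mice were about 11 weeks old, free of specific pathogens and on chow, and whole ileum was frozen, so RNA of epithelium, immune cells, stroma and muscle was measured together. The other 35 arrays, in 7 groups of 5, entered the estimate of each gene's spread. Of these groups, Fadd fl/fl (floxed alleles without deletion) and FADD IEC-KO served as reference levels. Levels are also given for mice with MLKL loss and epithelial CASP8 loss (CASP8 IEC-KO Mlkl -/-, below the CASP8 double knockout), for those that lack epithelial FADD in addition (the triple knockout), and for FADD IEC-KO RIPK3 IEC-KO. The remaining groups, Casp8 fl/fl (floxed alleles without deletion) and CASP8 IEC-KO, entered the estimate of spread and appear in the figures of all 45 arrays. The question is where the ileum differs when the necroptosis pathway is interrupted at a sensor or at its last step.

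FADD is the adaptor through which death receptors recruit and activate caspase-8, and caspase-8 in turn restrains necroptosis, a lytic form of cell death. In necroptosis the kinase RIPK3 phosphorylates MLKL, which then permeabilizes the plasma membrane. ZBP1 binds Z-form nucleic acids and engages RIPK3 from a side other than the TNF receptor, and it is itself induced by interferon. Interferon-induced genes, the antimicrobial peptides of Paneth cells at the crypt base, and genes of epithelial repair are the usual readouts of such damage in the ileum.

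Short letter patterns are shown here for promoters of 2 gene groups, type I interferon-induced genes and alpha-defensins. Both groups held lower calls and no higher ones in the results below. The first is the core of the interferon-stimulated response element, GAAA and GAAA with any 2 bases between them. It was searched on both strands of the 250 bases before each gene's start in RefSeq (GRCm38.p6) and stood in 3.46% of 27025 genes. Of 40 type I interferon-induced genes with a promoter entry, 18 (45.0%) held it. Windows of 60 bases follow with the pattern in capitals (on either strand). Bst2 holds 2 overlapping matches.
Trim30a, chr7:104465195-104465254, minus strand: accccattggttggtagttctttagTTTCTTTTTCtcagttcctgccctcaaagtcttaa
Slfn5, chr11:82951922-82951981, plus strand: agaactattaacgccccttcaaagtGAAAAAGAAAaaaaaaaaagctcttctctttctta
Rsad2, chr12:26456538-26456597, minus strand: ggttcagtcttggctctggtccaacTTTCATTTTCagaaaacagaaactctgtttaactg
Bst2, chr8:71537562-71537621, minus strand: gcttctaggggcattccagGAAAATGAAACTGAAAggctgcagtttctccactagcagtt
The pattern was held by 6 of 12 called genes and by 12 of 28 genes that did not pass the test on the list. Called genes without it were Ifit2, Ifih1, Ddx58, Herc6, Phf11d and Epsti1.

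The second pattern is the TCF site, the letters at which the Wnt-responsive factors TCF and LEF bind, spelled CTTTGNN with A or T at each N, on either strand. It stood in 16.8% of the same 27025 promoters and in 10 of 11 alpha-defensin genes with an entry (90.9%), with Defa43 as the exception. These genes are close copies in 1 cluster on chromosome 8, so their matches are not independent.
Defa22, chr8:21162178-21162237, plus strand: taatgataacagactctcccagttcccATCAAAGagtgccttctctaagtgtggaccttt
Defa28, chr8:21582916-21582975, plus strand: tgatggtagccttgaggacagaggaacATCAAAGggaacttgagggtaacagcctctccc
Defa31, chr8:21191472-21191531, plus strand: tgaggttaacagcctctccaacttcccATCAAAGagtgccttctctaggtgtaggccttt
A match is a description of the letters in the window and no measure of binding.

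Ileal identity was read from marker genes before the comparison. The bile acid genes Fabp6 and Slc10a2 lay at 12.45 to 12.95 and 11.22 to 11.94 over the 10 arrays, the epithelial gene Vil1 at 11.37 to 11.71, and the pancreatic gene Prss2 at 4.86 to 5.39. Array medians lay between 6.36 and 6.44 over all 45 arrays. Within the ZBP1-deficient group the median correlation of an array with the remaining 4 was 0.981 to 0.986, and within the MLKL-deficient group 0.990 to 0.991. The ZBP1-deficient arrays spread more, with a larger SD for 71.0% of genes (median SD 0.214 against 0.156). Y-linked genes were high in 2 of 5 and 3 of 5 arrays. Title numbers, whose meaning is not stated, were 31, 32, 35, 217 and 238 for ZBP1-deficient mice and 41 to 45 for MLKL-deficient mice. Whether a call held within numbers under 100 (3 mice against 5) is given in the paragraph of each result. Numbers of 200 and over hold only 1 of the 2 groups and give no value. If the run from 41 to 45 marks a litter or a cage, that and the genotype cannot be told apart.

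The targeted genes were examined in every array. Zbp1 was 6.46, 5.86, 6.02, 5.66 and 6.17 in the ZBP1-deficient mice and 7.72, 8.17, 7.83, 7.86 and 8.04 in the MLKL-deficient mice. The groups did not overlap, with a difference of -1.89 ± 0.29 (adjusted p = 6.29e-05). Zbp1 in Fadd fl/fl was 7.14 ± 0.73 (SD, n = 5). Against that group the ZBP1-deficient mean of 6.04 ± 0.31 was lower (-1.11 ± 0.29, adjusted p = 0.0091). The MLKL-deficient mean of 7.93 ± 0.18 did not pass the test against it (0.78 ± 0.29, adjusted p = 0.0801). Mlkl was 9.34, 9.22, 9.77, 8.51 and 9.55 in the ZBP1-deficient mice and 7.89, 8.12, 8.0, 7.85 and 8.39 in the MLKL-deficient mice. Again the groups stayed apart (1.23 ± 0.20, adjusted p = 0.000102), with replicate 4 of the first group (8.51) nearest to replicate 5 of the second (8.39). In FADD IEC-KO, Mlkl was 9.53, 8.97, 9.36, 8.51 and 9.35, near the ZBP1-deficient level. Against Fadd fl/fl (8.66 ± 0.35) the MLKL-deficient mice differed by -0.61 ± 0.20 (adjusted p = 0.036) and the ZBP1-deficient mice by 0.62 ± 0.20 (adjusted p = 0.0317). The other groups without MLKL stood at 8.43 ± 0.22 (CASP8 double knockout) and 7.14 ± 0.19 (triple knockout). A residual signal for a deleted gene can come from transcript outside the deleted part, and the position of the probes was not known. Fadd was at 6.17 ± 0.28 and 6.11 ± 0.22, did not pass the test between the groups (0.05 ± 0.17, adjusted p = 0.914) and was below 7.53 ± 0.06 in Fadd fl/fl in both (adjusted p = 5.54e-07 and 4.25e-07). Neither Casp8 (-0.20 ± 0.14, adjusted p = 0.491) nor Ripk3 (0.04 ± 0.16, adjusted p = 0.93) passed the test.

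**Figure D1:**
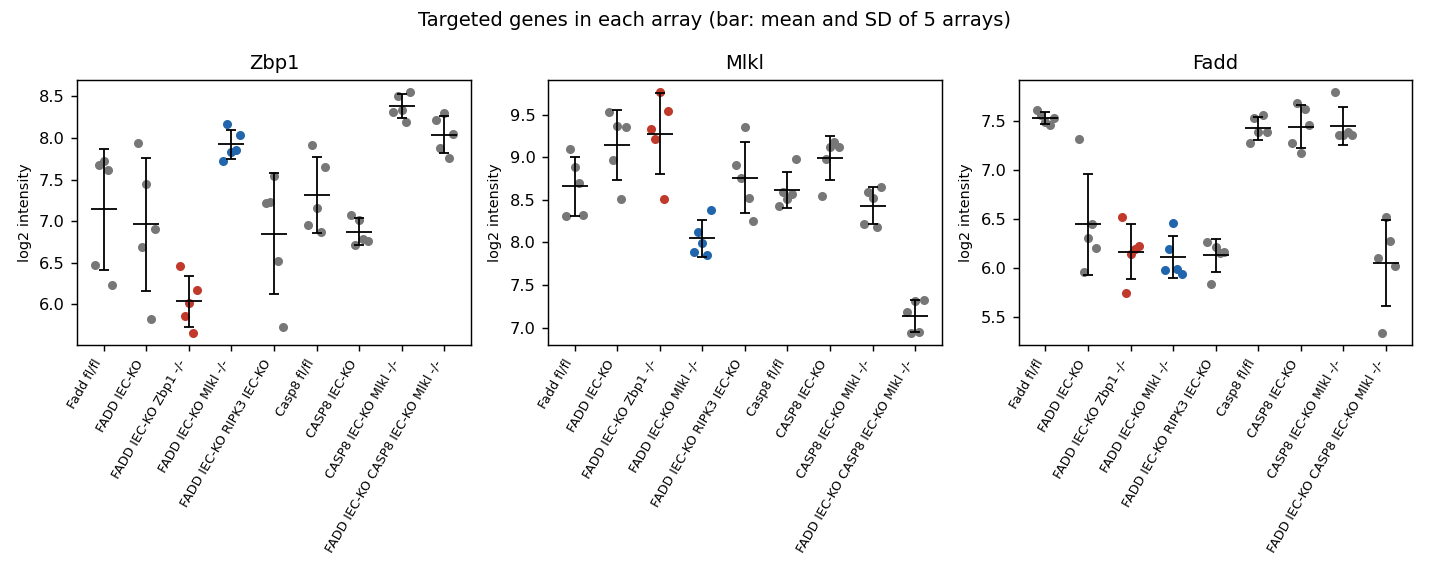
Log2 intensity of Zbp1, Mlkl and Fadd in each of the 45 arrays by group, with the group mean and SD (n = 5); the ZBP1-deficient group is red and the MLKL-deficient group blue. Zbp1 is lowest in the red group and Mlkl is lower in the blue group than in the red group, while Fadd is low in both, with means of 6.17 and 6.11.

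Across the 19494 genes measured, 804 passed the test (4.12%, limma with Benjamini-Hochberg adjustment, adjusted p under 0.05). Of these, 344 (1.76%) were higher and 460 (2.36%) lower in ZBP1-deficient mice. A change of at least 2-fold was reached by 22 of the higher genes (0.113%) and 59 of the lower genes (0.303%), 81 in all (0.416%). Arrays of the groups did not overlap for 901 genes (4.62%), 425 of them higher (2.18%) and 476 lower (2.44%). At an unadjusted p under 0.05 there were 3356 genes (17.2%). In the same fit the ZBP1-deficient group differed from Fadd fl/fl in 2313 genes (11.9%) and from FADD IEC-KO in 648 (3.32%), and the MLKL-deficient group in 2040 (10.5%) and 313 (1.61%); these comparisons share arrays. The median difference over all genes was -0.0029 on the log2 scale. The count rested on the arrays used: among title numbers under 100 it was 99, with the 10 arrays fitted alone it was 323, and without 1 array at a time it ranged from 467 to 1019, with the lowest counts without ZBP1-deficient replicate 5 (467), ZBP1-deficient replicate 4 (521) and MLKL-deficient replicate 2 (524). Each of the 804 genes kept its direction in those fits. Below, Z1 to Z5 and M1 to M5 stand for the replicates of the ZBP1-deficient and MLKL-deficient groups, and "without Z1" gives the adjusted p of a call that ended when that array was left out. As nothing in the labels beyond the title numbers says that the samples came from separate animals, the p-values measure only the spread between these samples.

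**Figure D2:**
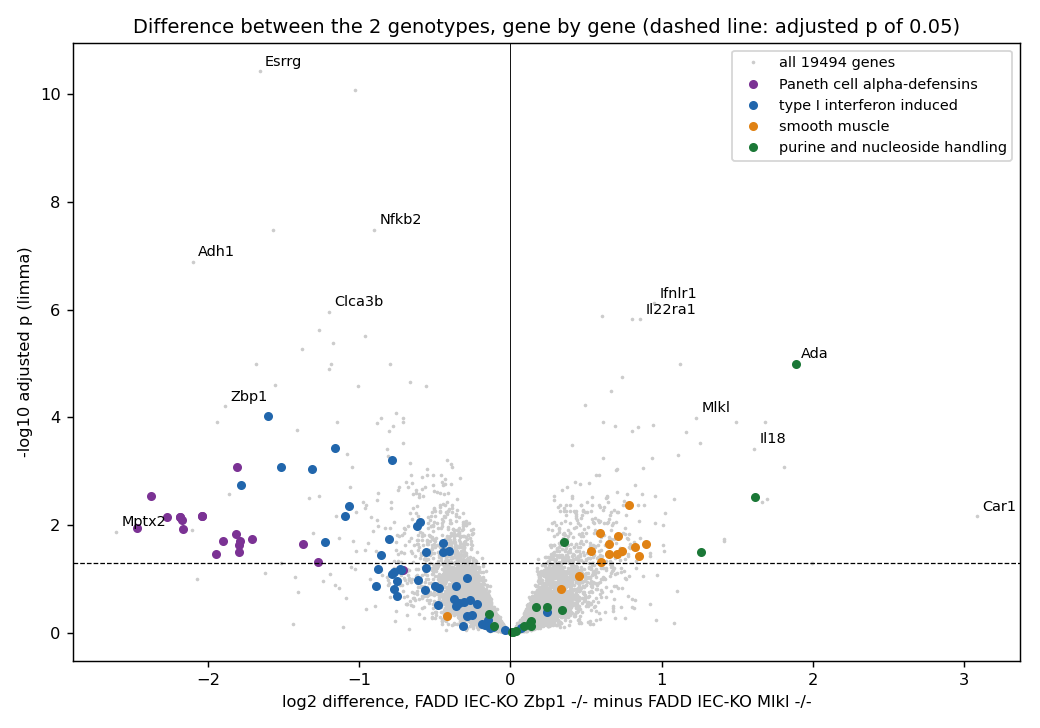
Log2 difference between ZBP1-deficient and MLKL-deficient mice (x axis) against -log10 of the limma adjusted p (y axis) for 19494 genes, with members of 4 gene lists coloured and selected genes named. Alpha-defensins and interferon-induced genes lie on the left, smooth muscle and nucleoside genes on the right, and Esrrg, Nfkb2 and Adh1 are among the named genes with the smallest p-values on the left.

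Markers of smooth muscle moved with the contrast and are given first, since they stand beside each result below. Of 15 smooth muscle genes, 12 were higher in ZBP1-deficient mice and none was lower (background 1.76% and 2.36%), with a median difference of 0.65. The list's mean level, relative to Fadd fl/fl, was -0.22, -0.02, 0.16, -0.13 and -0.07 in the ZBP1-deficient mice and -0.60, -0.50, -0.70, -0.84 and -0.60 in the MLKL-deficient mice, so the groups did not overlap. The MLKL-deficient arrays lay below the Fadd fl/fl arrays (-0.45 to 0.35) and within the range of FADD IEC-KO (-1.01 to 0.14), whereas the ZBP1-deficient arrays lay within the Fadd fl/fl range. Actg2, the smooth muscle gamma-actin, was 11.0, 11.24, 11.22, 10.98 and 11.26 against 10.16, 10.56, 10.27, 9.96 and 10.26 (0.90 ± 0.24, adjusted p = 0.0222, up to 0.0637 without Z5 or M4). The intermediate filament gene Des (0.85 ± 0.25, adjusted p = 0.0378, up to 0.0981 without Z1, Z2, Z3, Z5, M1, M2, M3 or M4) and the actin-binding gene Cnn1 (0.83 ± 0.23, adjusted p = 0.0262, up to 0.0807 without Z2, Z5, M1 or M4) separated the groups in the same way. The count was 0 of 15 within title numbers under 100. It was 3 without Z5, 4 without M4, 5 without Z3, 6 without M3, and 7 without Z2, Z4 or M1. The paragraphs below also say which calls held in a fit, chosen after the data were seen, with the mean of this list as a covariate, in which 264 genes passed. Both targeted genes held in that fit and within numbers under 100. Because the list mean did not overlap between the groups, this covariate can also take away difference that belongs to the genotype. Whether muscle content accounts for a call that ended in that fit was not tested.

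Antimicrobial peptide genes of Paneth cells were lower in ZBP1-deficient mice. Of 20 alpha-defensins on the list, 19 were lower and none was higher (background 2.36% and 1.76%), with a median difference of -1.92. The 20 genes give 18 distinct measurements, of which 17 were called, because Defa3 and Defa17 as well as Defa20 and Defa32 had identical values; near-identical copies cannot be told apart on the array. Fewer Paneth cells and less of this RNA per cell cannot be told apart in whole tissue. In both genotypes the level was below Fadd fl/fl: the list mean, relative to that group, was -2.53, -4.43, -4.57, -3.12 and -3.85 in ZBP1-deficient mice and -1.0, -1.85, -2.55, -1.61 and -2.04 in MLKL-deficient mice. The groups overlapped by replicate 1 of the first (-2.53) and replicate 3 of the second (-2.55). FADD IEC-KO lay between -3.72 and -1.47, and FADD IEC-KO RIPK3 IEC-KO, which lacks RIPK3 in the epithelium, between -0.88 and -0.42.

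Among the 20, Defa34 was 8.40, 5.54, 5.78, 7.72 and 6.91 in ZBP1-deficient mice and 10.41, 9.26, 8.52, 9.57 and 8.95 in MLKL-deficient mice. All of the former lay below all of the latter (-2.47 ± 0.60, adjusted p = 0.0112). Defa22, whose promoter window is shown above, was 10.32, 6.83, 7.59, 9.45 and 8.66 against 11.78, 10.87, 10.12, 11.08 and 10.87, where replicate 1 of the first group overlapped replicate 3 of the second (-2.38 ± 0.49, adjusted p = 0.00293). Defa25 was 6.64, 6.05, 6.71, 6.75 and 6.18 against 9.05, 8.64, 7.65, 7.91 and 8.12, again without overlap (-1.81 ± 0.33, adjusted p = 0.000843). Defa17, which shares its values with Defa3, was lower as well (-2.04 ± 0.46, adjusted p = 0.00691), and so was Defa40 (-1.82 ± 0.46, adjusted p = 0.015, 0.0525 without Z3). The member that did not pass was Defa27 (-0.71 ± 0.23, adjusted p = 0.0676), although its groups did not overlap.

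Other products of Paneth cells gave fewer calls. Of 15 other Paneth cell genes, 13 had negative and 2 had positive differences, with a list median of -0.35. In the test 2 of the 15 were lower (background 2.36%) and 13 did not pass. One of the 2 was Defa30, entered under an old locus name and thus also an alpha-defensin (-1.37 ± 0.37, adjusted p = 0.023, up to 0.0798 without Z3, Z5, M1 or M4). The other was the mucosal pentraxin Mptx2, at 6.27, 3.57, 4.92, 4.87 and 5.90 in ZBP1-deficient mice and 9.15, 7.69, 6.54, 7.89 and 7.30 in MLKL-deficient mice (-2.61 ± 0.65, adjusted p = 0.0134, 0.0538 without M1). The related gene Mptx1 had -2.07 ± 0.73 (adjusted p = 0.0998). The lysozyme gene Lyz1 (-0.14 ± 0.32) and the ribonuclease gene Ang4 (-0.05 ± 0.54) had differences within their errors. Within title numbers under 100, 2 of the 20 alpha-defensins passed (Defa22 and Defa25), and with the muscle covariate 0 of 20. Mptx2 passed in neither (adjusted p = 0.12 and 0.227). Without 1 array at a time the count was 11 to 20, with 11 without M1 and 12 without Z3.

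**Figure D3:**
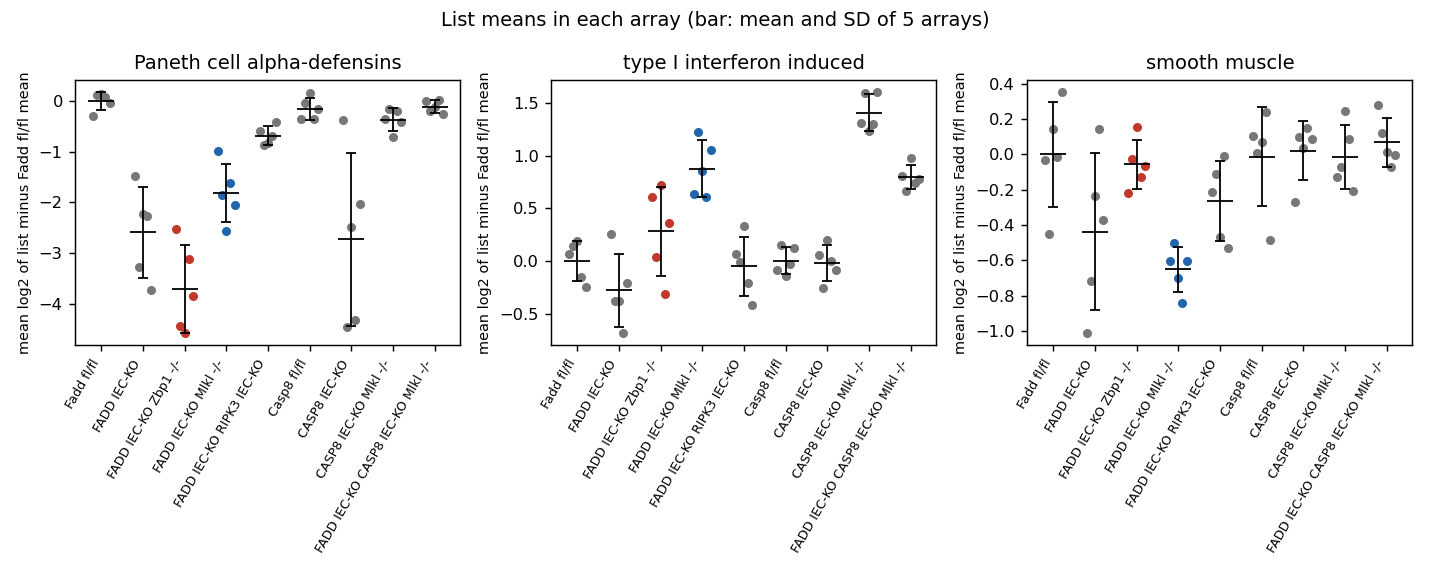
Mean log2 level of the alpha-defensin, type I interferon and smooth muscle lists relative to Fadd fl/fl in each of the 45 arrays, with group mean and SD (n = 5). Alpha-defensins lie between -4.57 and -2.53 in the red ZBP1-deficient group, the interferon list lies between 0.61 and 1.23 in the blue MLKL-deficient group, and the smooth muscle list lies between -0.84 and -0.50 there.

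Of 51 measured type I interferon-induced genes, 17 were lower in ZBP1-deficient than in MLKL-deficient mice and none was higher (background 2.36% and 1.76%), with a median difference of -0.56. The list's mean, relative to Fadd fl/fl, was 0.61, 0.04, 0.72, -0.31 and 0.37 in ZBP1-deficient mice and 0.64, 1.23, 0.86, 0.61 and 1.06 in MLKL-deficient mice. Replicates 1 and 3 of the ZBP1-deficient group lay among the MLKL-deficient mice, and the other 3 lay below them. The list was also above the Fadd fl/fl mean in the other groups without MLKL, at 1.23 to 1.61 in the CASP8 double knockout and 0.67 to 0.98 in the triple knockout. FADD IEC-KO lay between -0.68 and 0.26, and FADD IEC-KO RIPK3 IEC-KO between -0.41 and 0.33. Ifit2, which blocks translation of foreign RNA, was 5.88, 5.35, 5.79, 4.64 and 5.76 against 6.81, 7.66, 7.06, 6.61 and 7.30 without overlap (-1.60 ± 0.25, adjusted p = 9.51e-05). Its mean was 5.63 ± 0.44 in Fadd fl/fl, from which the ZBP1-deficient level did not pass the test (-0.15 ± 0.25, adjusted p = 0.779) while the MLKL-deficient level was higher (1.45 ± 0.25, adjusted p = 0.000181).

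Trim30a, a regulator of inflammatory signalling in mice, was 7.45, 5.80, 7.52, 5.19 and 6.56 in ZBP1-deficient mice and 7.83, 9.02, 8.18, 7.67 and 8.73 in MLKL-deficient mice (-1.78 ± 0.35, adjusted p = 0.00179). Phf11d was 6.99, 6.76, 7.90, 5.42 and 7.18 against 8.09, 8.98, 8.46, 7.70 and 8.59, where replicate 3 of the first group overlapped the second (-1.52 ± 0.28, adjusted p = 0.000843). In both genes replicate 4 of the ZBP1-deficient group was the lowest array. On a separate list, 3 of 19 interferon gamma and guanylate-binding protein genes were lower (background 2.36%), with a list median of -0.66: Gbp3 (-1.06 ± 0.21, adjusted p = 0.00199), Gbp9 (-0.94 ± 0.25, adjusted p = 0.0217, up to 0.0936 without Z2, Z4, M2 or M5) and the chemokine gene Cxcl11 (-0.88 ± 0.21, adjusted p = 0.00817, 0.0546 without Z5). Among MHC class I genes 2 of 18 were lower (background 2.36%), the peptide-loading gene Tapbp (-0.41 ± 0.10, adjusted p = 0.0111, 0.0683 without Z4) and the trimming peptidase Erap1 (-0.34 ± 0.08). In limma 0 of 8 MHC class II genes passed, 1 of them with an unadjusted p under 0.05, and H2-Ab1 had -0.43 ± 0.36 (adjusted p = 0.588).

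The interferon counts depended on the arrays. Without Z4 the count of type I genes was 9, without M2 it was 11, and without Z3 it was 26. It was 3 within title numbers under 100, 5 with the 10 arrays fitted alone and 5 with the muscle covariate. Ifit2 passed in each of these fits (adjusted p = 0.0146 within numbers under 100 and 0.014 with the covariate). Trim30a had adjusted p of 0.152 and 0.0774 there, Gbp3 0.152 and 0.09, and Phf11d 0.0621 and 0.0301. Of the 3 interferon gamma genes 0 passed within numbers under 100 and 1, Cxcl11, with the covariate. Neither MHC class I gene passed in these fits, and 0 of the 18 passed with the 10 arrays fitted alone.

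The receptor genes of interferon lambda and interleukin-22, cytokines that act on gut epithelium, differed in the opposite direction. Ifnlr1, the specific chain of the interferon lambda receptor, was 7.51, 7.41, 7.79, 7.52 and 7.56 in ZBP1-deficient mice and 6.41, 6.54, 6.60, 6.55 and 6.94 in MLKL-deficient mice. The groups were far apart relative to their spread (0.95 ± 0.11, adjusted p = 7.68e-07). Il22ra1, the interleukin-22 receptor chain, was 9.49, 9.45, 9.53, 9.50 and 9.41 against 8.39, 8.69, 8.65, 8.55 and 8.80 (0.86 ± 0.11, adjusted p = 1.50e-06). These 2 genes neighbour each other on chromosome 4, with 1 entry of the gene table between them. Both passed within title numbers under 100 (adjusted p = 9.26e-05 and 0.000243) and with the muscle covariate (7.59e-05 and 4.05e-05).

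Against Fadd fl/fl, Ifnlr1 differed in the MLKL-deficient mice (-0.83 ± 0.11, adjusted p = 4.68e-06) and did not pass the test in the ZBP1-deficient mice (0.12 ± 0.11, adjusted p = 0.551). Ifnlr1 was 7.44 ± 0.24 in Fadd fl/fl and 7.39 ± 0.12 in FADD IEC-KO, against 7.56 ± 0.14 in the ZBP1-deficient mice and 6.61 ± 0.20 in the MLKL-deficient mice. The CASP8 double knockout stood at 7.23 ± 0.12 and the triple knockout at 7.10 ± 0.31. Il22ra1 was below Fadd fl/fl in both, with a difference of -1.22 ± 0.11 in MLKL-deficient mice (adjusted p = 3.61e-10) and -0.36 ± 0.11 in ZBP1-deficient mice (adjusted p = 0.0239). Of the other receptor and ligand genes of interferon, Ifngr2 was higher (0.27 ± 0.07, adjusted p = 0.0255, up to 0.125 without Z3, Z4 or M1). On that list 2 of 14 genes were higher (background 1.76%) and 12 did not pass. The call of Ifngr2 ended within title numbers under 100 (adjusted p = 0.273) and with the muscle covariate (0.165). Interleukin-22 itself and the lectin genes Reg3b and Reg3g did not pass, with Il22 at 0.10 ± 0.17, Reg3b at -0.12 ± 0.12 and Reg3g at -0.32 ± 0.19. Il22ra1 was the sole call among 21 genes of that axis (4.76%, against 4.12% of all genes called in either direction).

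Of 12 genes for NF-kB subunits and feedback inhibitors, 3 were lower in ZBP1-deficient mice (background 2.36%) and 9 did not pass. Nfkb2, which encodes the p100 precursor of the non-canonical pathway, was 7.40, 7.58, 7.31, 7.38 and 7.49 against 8.14, 8.35, 8.48, 8.34 and 8.34 (-0.90 ± 0.09, adjusted p = 3.29e-08). Nfkbia, the inhibitor IkB-alpha that NF-kB itself induces, was 8.72, 8.79, 8.99, 8.82 and 9.06 against 9.61, 9.66, 9.53, 9.48 and 9.65 (-0.71 ± 0.11, adjusted p = 0.000104). In neither gene did the groups overlap. Nfkb2 in ZBP1-deficient mice (7.43 ± 0.10) was at the level of Fadd fl/fl (7.45 ± 0.10), and it was high in all 3 groups without MLKL, at 8.33 ± 0.12 here, 7.81 ± 0.15 in the CASP8 double knockout and 8.14 ± 0.27 in the triple knockout. The ubiquitin-editing gene Tnfaip3 was also lower (-0.61 ± 0.14, adjusted p = 0.00691), and its call ended within title numbers under 100 (adjusted p = 0.245) and with the muscle covariate (0.165). Rela, Relb and Rel, the subunits themselves, had differences of -0.04 ± 0.12, 0.19 ± 0.12 and 0.06 ± 0.11 and did not pass.

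Of 12 TNF and death receptor genes, 3 were lower (background 2.36%) and 1 was higher (background 1.76%). Tnfsf10, the ligand TRAIL, was 8.43, 8.03, 8.67, 7.65 and 8.0 against 9.55, 9.45, 9.26, 9.65 and 9.19 without overlap (-1.26 ± 0.26, adjusted p = 0.00295). Tnf was 5.63, 5.92, 6.61, 5.17 and 6.30 against 6.96, 6.56, 6.72, 6.95 and 6.90, with replicate 3 of the ZBP1-deficient group inside the other group (-0.89 ± 0.25, adjusted p = 0.0307, up to 0.135 without Z1, Z4, M1, M4 or M5). Relative to Fadd fl/fl, Tnf was higher in both groups, by 1.04 ± 0.25 in ZBP1-deficient and 1.93 ± 0.25 in MLKL-deficient mice. Traf2 was the third lower gene (-0.40, named after its value was seen), and the adaptor gene Tradd was the higher one (0.41 ± 0.07, adjusted p = 0.000327). Among 12 necroptosis genes the calls beside the targeted pair were Tnfaip3 and Birc3 (-0.47, named after its value was seen). Nfkb2 and Nfkbia passed within title numbers under 100 and with the muscle covariate, Tradd passed with adjusted p of 0.0354 and 0.00314, and Tnfsf10 (0.206 and 0.183) and Tnf (0.241 and 0.276) did not.

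Car1, a carbonic anhydrase more typical of colon and on none of the lists, was 7.25, 9.45, 9.90, 8.47 and 10.50 in ZBP1-deficient mice and 5.55, 6.58, 6.91, 5.59 and 5.54 in MLKL-deficient mice. This was the largest rise among named genes (3.08 ± 0.70, 8.47-fold, adjusted p = 0.00696), and its replicates spread over more than 3 log2 units in the first group. Relative to Fadd fl/fl (5.38 ± 0.53) it was higher in ZBP1-deficient mice (3.74 ± 0.70, adjusted p = 0.000342), and not in MLKL-deficient mice (0.65 ± 0.70, adjusted p = 0.642). FADD IEC-KO stood at 9.23 ± 2.39.

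Of 13 genes on the fetal-like and repair list, 4 were higher in ZBP1-deficient mice and none was lower (background 1.76% and 2.36%), 9 did not pass, and the list median was 0.21. The list mean, relative to Fadd fl/fl, lay between 0.15 and 0.75 in ZBP1-deficient mice and between 0.05 and 0.30 in MLKL-deficient mice. It was also raised in FADD IEC-KO, at 0.39 to 0.96, against -0.06 to 0.13 in the Fadd fl/fl arrays. Annexin A1 (Anxa1), a lipid-binding protein that limits inflammation, was 7.32, 9.17, 9.11, 7.59 and 9.54 against 6.98, 6.78, 6.49, 6.87 and 6.55 (1.81 ± 0.33, adjusted p = 0.000832). ZBP1-deficient replicates 1 and 4 were the lowest of their group for both Car1 and Anxa1. The calcium-binding gene S100a6 was 9.41, 10.32, 10.08, 10.32 and 10.15 against 8.78, 8.93, 8.94, 8.94 and 8.89 (1.16 ± 0.19, adjusted p = 0.000187), and Anxa3 was 0.88 ± 0.19 (adjusted p = 0.00425). The remaining call was Anxa8 (0.76, named after its value was seen). Anxa1 and S100a6 passed within title numbers under 100 (adjusted p = 0.0386 and 0.0371) and with the muscle covariate (0.029 and 0.031), whereas Anxa3 passed in neither (0.117 and 0.0798). Car1 passed with the covariate and not within those numbers (0.137).

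Il18, a cytokine that epithelial cells store and inflammasomes activate, was 8.23, 7.81, 8.31, 8.50 and 8.67 in ZBP1-deficient mice and 6.59, 7.04, 6.60, 6.39 and 6.84 in MLKL-deficient mice (1.61 ± 0.28, adjusted p = 0.000386). The groups did not overlap. It was the only call among 12 genes of the interleukin-1 family (background 1.76% higher and 2.36% lower), where Il1a, Il1b and Il1rn had -0.26 ± 0.21, -0.19 ± 0.27 and 0.05 ± 0.40. Among 18 inflammasome and gasdermin genes (same background), Casp1 was lower (-0.51 ± 0.10, adjusted p = 0.00117) and the pore-forming gene Gsdmd higher (0.43 ± 0.10, adjusted p = 0.00543). Il18 had an adjusted p of 0.0511 within title numbers under 100 and 0.0126 with the muscle covariate, Casp1 had 0.199 and 0.0656, and Gsdmd had 0.0713 and 0.00601.

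Of 16 genes of purine and nucleoside handling, 4 were higher in ZBP1-deficient mice and none was lower (background 1.76% and 2.36%), 12 did not pass, and the list median was 0.13. Ada, the adenosine deaminase of villus enterocytes, was 11.69, 10.82, 10.43, 11.90 and 10.45 in ZBP1-deficient mice and 9.26, 8.79, 9.10, 9.40 and 9.32 in MLKL-deficient mice (1.89 ± 0.26, 3.7-fold, adjusted p = 1.02e-05). Slc28a2, a concentrative nucleoside transporter, was 9.21, 8.38, 8.34, 9.80 and 8.30 against 7.41, 6.56, 7.28, 7.53 and 7.15 (1.62 ± 0.34, adjusted p = 0.0031). Neither gene overlapped between groups. Within the ZBP1-deficient group, replicates 1 and 4 were highest for both genes, the same replicates that were lowest for Car1 and Anxa1. Nt5e, the ecto-nucleotidase that makes adenosine, was higher by 1.26 ± 0.36 (adjusted p = 0.0319, up to 0.136 without Z1, Z4, M1, M3 or M4), and Entpd8 was the remaining call (0.35, named after its value was seen). The count was 2 without Z1, Z4 or M1 and 2 within title numbers under 100. Nt5e had an adjusted p of 0.255 there and 0.195 with the muscle covariate.

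In the reference groups these genes stood near the ZBP1-deficient level. Ada was 11.03 ± 0.45 in Fadd fl/fl, 11.55 ± 0.61 in FADD IEC-KO and 11.06 ± 0.70 in ZBP1-deficient mice, against 9.17 ± 0.24 in MLKL-deficient mice (-1.86 ± 0.26 from Fadd fl/fl, adjusted p = 5.98e-06). Slc28a2 was likewise below Fadd fl/fl in MLKL-deficient mice (-1.42 ± 0.34, adjusted p = 0.00427) and not in ZBP1-deficient mice (0.20 ± 0.34, adjusted p = 0.777). Ada stood at 10.69 ± 0.27 in the CASP8 double knockout and 11.04 ± 0.32 in the triple knockout. Susd2, a membrane protein of the brush border, was 10.47, 9.26, 9.17, 10.48 and 9.12 against 8.33, 7.71, 7.94, 8.76 and 8.31 (1.49 ± 0.24, adjusted p = 0.000122) and also below Fadd fl/fl in MLKL-deficient mice (-2.05 ± 0.24). Ada, Slc28a2 and Susd2 passed within title numbers under 100 and with the muscle covariate.

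Of 20 genes of lipid absorption in enterocytes, 7 were higher in ZBP1-deficient mice and none was lower (background 1.76% and 2.36%), with a median of 0.31. Apoa4, an apolipoprotein of chylomicrons, was 11.52, 11.39, 11.08, 10.54 and 10.89 in ZBP1-deficient mice and 9.47, 9.60, 9.13, 9.60 and 9.33 in MLKL-deficient mice (1.66 ± 0.35, adjusted p = 0.00383). For Apoa4 the ZBP1-deficient level was above Fadd fl/fl (2.20 ± 0.35, adjusted p = 4.07e-05). The list mean, relative to Fadd fl/fl, was not, and lay between -0.38 and 0.07 in ZBP1-deficient mice. It lay between -0.60 and -0.43 in MLKL-deficient mice, -0.46 and -0.18 in FADD IEC-KO, and -0.13 and 0.16 in Fadd fl/fl. Apoc3 (0.82 ± 0.16) and Mogat2, which re-forms triglyceride from absorbed monoglyceride (0.61 ± 0.10, adjusted p = 0.000122), were higher without overlap. The count stayed at 7 with the muscle covariate and was 2 within title numbers under 100, Apoa4 and Mogat2, with Apoc3 at an adjusted p of 0.0743.

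The cytochrome P450 genes Cyp2c65 and Cyp2c66 were the 2 calls among 19, both higher (background 1.76%). Cyp2c65 was 8.55, 9.33, 8.96, 9.65 and 9.03 against 7.16, 7.62, 7.18, 7.59 and 7.55 (1.69 ± 0.27, adjusted p = 0.000122), and Cyp2c66 had 1.25 ± 0.22 (adjusted p = 0.000306); as close copies they may share probe signal. Enterocyte markers were higher in 3 of 15 cases (background 1.76%), Ada among them, with the alkaline phosphatase Alpi at 0.66 ± 0.17 (adjusted p = 0.0182, up to 0.0944 without Z1, Z4 or M2) and the cadherin Cdhr2 at 0.39 ± 0.10 (adjusted p = 0.0141, up to 0.0792 without Z1, Z4 or M2). The vitamin B12 uptake gene Amn (0.60 ± 0.15, adjusted p = 0.0167, up to 0.0842 without Z1 or Z4) was the call among 15 ileal genes, and trehalase, Treh (1.02 ± 0.28, adjusted p = 0.0307, up to 0.135 without Z1, Z4, M1, M2 or M3), among 13 sugar genes. Cyp2c65 and Cyp2c66 passed within title numbers under 100 and with the muscle covariate. Cdhr2 passed with the covariate alone, and Alpi, Amn and Treh in neither (adjusted p of 0.12 to 0.268 and 0.0633 to 0.0798). Lists of cholesterol synthesis (0 of 18), the circadian clock (0 of 18) and p53 targets (0 of 12) held no call in limma, with 1, 2 and 3 genes at an unadjusted p under 0.05.

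**Figure D4:**
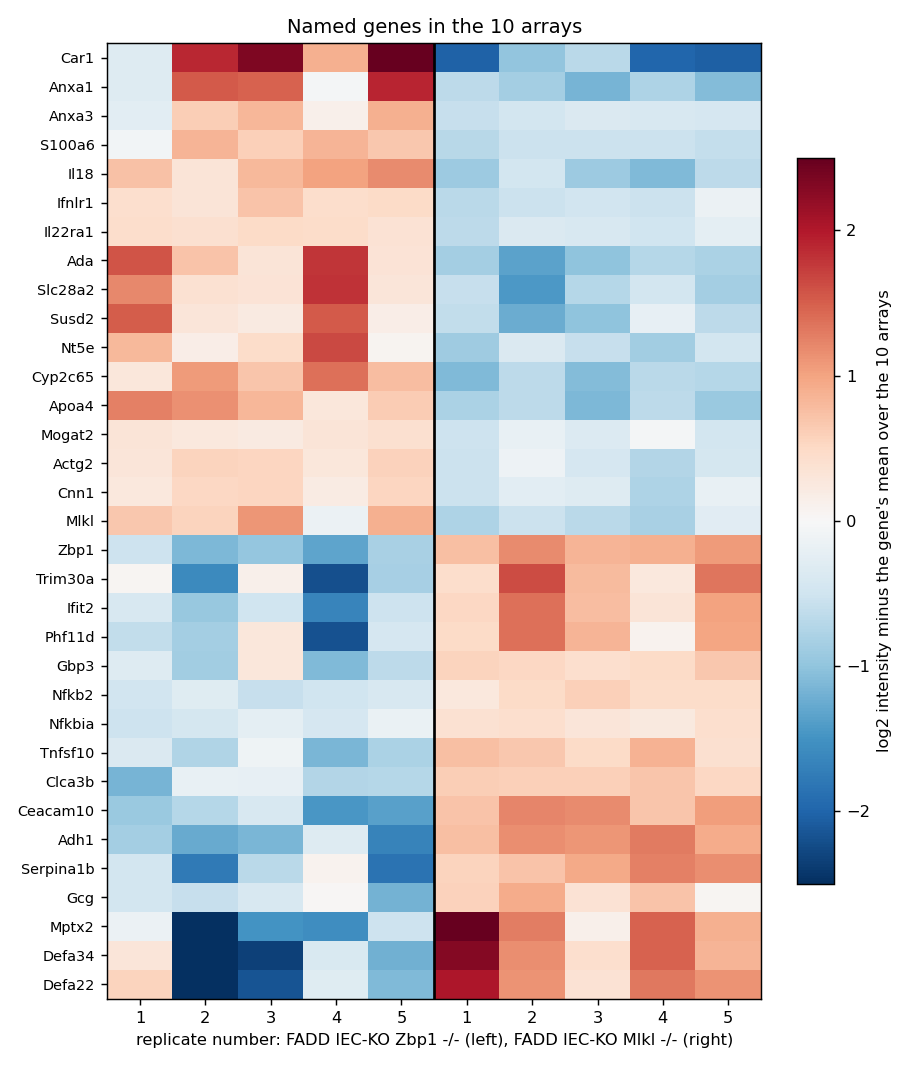
Log2 intensity of 33 named genes minus each gene's mean over the 10 arrays, with the 5 ZBP1-deficient arrays left of the line and the 5 MLKL-deficient arrays right of it (color scale from -2.5 to 2.5). Rows from Car1 to Mlkl are higher on the left and rows from Zbp1 to Defa22 lower; ZBP1-deficient replicates 1 and 4 differ from the other 3 in Car1, Anxa1, Ada and Slc28a2.

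The remaining large falls were single genes. Adh1, an alcohol dehydrogenase that also oxidizes retinol, was 7.69, 7.27, 7.40, 8.21 and 6.86 in ZBP1-deficient mice and 9.29, 9.70, 9.64, 9.83 and 9.47 in MLKL-deficient mice (-2.10 ± 0.23, adjusted p = 1.30e-07). Ceacam10, a carcinoembryonic antigen family member, was 7.98, 8.21, 8.52, 7.47 and 7.57 against 9.63, 10.14, 10.10, 9.61 and 9.97 (-1.94 ± 0.31, adjusted p = 0.000123). Serpina1b, a protease inhibitor of a family of close copies, was 6.23, 4.92, 6.0, 6.78 and 4.84 against 7.25, 7.39, 7.64, 7.94 and 7.85 (-1.86 ± 0.38, adjusted p = 0.00269). Groups were separate in each, and each passed within title numbers under 100 and with the muscle covariate. Adh1 was above Fadd fl/fl in MLKL-deficient mice (1.33 ± 0.23, adjusted p = 0.000215) and below it in ZBP1-deficient mice (-0.78 ± 0.23, adjusted p = 0.0238), whereas Serpina1b was at the Fadd fl/fl level in MLKL-deficient mice (0.07 ± 0.38) and below it in ZBP1-deficient mice (-1.79 ± 0.38).

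Genes with the smallest p-values in each direction were chosen after the values were seen. Esrrg, the orphan nuclear receptor ERR-gamma, was 5.89, 5.40, 5.63, 5.92 and 5.71 in ZBP1-deficient mice and 7.54, 7.13, 7.19, 7.59 and 7.40 in MLKL-deficient mice (-1.66 ± 0.13, adjusted p = 3.77e-11). The calcium-binding gene Gca was 8.83, 8.52, 8.74, 8.56 and 8.55 against 9.57, 9.70, 9.75, 9.67 and 9.64 (-1.03 ± 0.09, adjusted p = 8.39e-11), and the melanosome transport gene Mreg was 5.98, 6.11, 6.23, 5.81 and 6.0 against 7.36, 7.66, 7.60, 7.79 and 7.57 (-1.57 ± 0.17, adjusted p = 3.29e-08). Spread within groups was small in these genes. Each was above Fadd fl/fl in MLKL-deficient mice, by 1.16 ± 0.13, 0.77 ± 0.09 and 1.31 ± 0.17. In the upward direction, the small GTPase gene Rhoc (0.60 ± 0.07, adjusted p = 1.34e-06) and the LIM protein gene Crip1 (0.80 ± 0.10, adjusted p = 1.50e-06) stood beside Ifnlr1 and Il22ra1 among the 5 smallest. These 5 genes passed in each of the 10 fits without 1 array and the 12 other alternatives.

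Among crypt genes, Clca3b, entered here among stem cell genes, was 10.33, 11.29, 11.27, 10.76 and 10.78 against 12.09, 12.07, 12.08, 12.17 and 12.0 (-1.20 ± 0.15, adjusted p = 1.10e-06), and its close copies Clca3a1 (-1.19 ± 0.17) and Clca3a2 (-1.38 ± 0.19), named after their values were seen, were lower too. With the ion transporter Slc12a2 (-0.51 ± 0.13, adjusted p = 0.0188, up to 0.0948 without Z1, Z5 or M2) and the kinase Cdk6 (-0.43 ± 0.13, adjusted p = 0.0467, up to 0.146 without Z1, Z2, Z5, M1, M2, M3, M4 or M5), 3 of 10 stem cell genes were lower (background 2.36%). The proliferation genes Mki67 (-0.56 ± 0.11, adjusted p = 0.00196) and Ccnb2 (-0.45 ± 0.12, adjusted p = 0.0256, up to 0.0954 without Z1, Z4, M1 or M2) were the 2 lower genes of 24 cell cycle genes (background 2.36%), with a list median of -0.26. Of 18 genes of the unfolded protein response 4 were lower (background 2.36%), among them the chaperone Hspa5 (-0.40 ± 0.09), the cysteine-rich gene Creld2 (-0.47 ± 0.14, adjusted p = 0.0399, up to 0.146 without Z1, Z2, Z4, Z5, M1, M3, M4 or M5) and the disulfide isomerase Pdia6 (-0.41 ± 0.11, adjusted p = 0.0182, up to 0.0771 without Z1, Z4, M2 or M5); none of these 4 passed with the 10 arrays fitted alone, within title numbers under 100 or with the muscle covariate. Clca3b, Clca3a1 and Clca3a2 passed in all of the alternatives. Slc12a2 and Mki67 passed with the muscle covariate and not within title numbers under 100 (adjusted p = 0.173 and 0.139), and Cdk6 (0.077 and 0.185) and Ccnb2 (0.176 and 0.17) passed in neither.

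Other secretory and sensory lineages gave few calls. Gcg, which encodes glucagon-like peptides, was 8.11, 7.99, 8.17, 8.60 and 7.38 in ZBP1-deficient mice and 9.15, 9.50, 8.94, 9.28 and 8.61 in MLKL-deficient mice (-1.05 ± 0.19, adjusted p = 0.000829) without overlap. Pyy was lower as well (-0.42, named after its value was seen), and the granule genes Cpe (0.77 ± 0.22, adjusted p = 0.0341, up to 0.0943 without Z2, Z3, Z4, M1, M2 or M4) and Scg2 (0.66 ± 0.19, adjusted p = 0.037, up to 0.109 without Z1, Z3, Z4, M1, M3, M4 or M5) were higher, which made 2 lower and 2 higher of 21 enteroendocrine genes (background 2.36% and 1.76%). With the muscle covariate the differences of Cpe and Scg2 were 0.07 and 0.03. Among 19 goblet cell genes, Ccl6 (-0.71 ± 0.17, adjusted p = 0.0112, 0.0579 without Z5), Ccl9 (-0.70 ± 0.18, adjusted p = 0.0144, 0.0777 without Z1) and Spink4 (-0.43 ± 0.11, adjusted p = 0.0221, up to 0.0747 without Z1, Z5, M2 or M4) were lower (background 2.36%), and among 14 tuft cell genes the channel gene Trpm5 (-0.70 ± 0.19, adjusted p = 0.0232, up to 0.108 without Z1, Z2, M2, M4 or M5). Within title numbers under 100 Gcg passed, while Cpe, Scg2, Ccl6, Ccl9, Spink4 and Trpm5 had adjusted p of 0.0553 to 0.207. With the muscle covariate Gcg, Ccl9 and Trpm5 passed, and Ccl6 (0.248) and Spink4 (0.0617) did not.

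Immune cell markers gave few calls. None passed in limma among 23 lymphocyte, 16 macrophage, 15 neutrophil and 12 mast cell and eosinophil genes, with list medians of -0.19, -0.30, -0.01 and 0.09 and with 0, 4, 0 and 0 genes at an unadjusted p under 0.05. Nor did any of 13 endothelial, 12 enteric neuron and glia, 13 pancreatic or 2 red blood cell genes pass, with 0, 3, 0 and 0 at that unadjusted p. Among 17 B cell genes, Mzb1 (-1.14 ± 0.29, adjusted p = 0.0178, up to 0.0612 without Z4, Z5 or M5) and Cd79a (-0.72 ± 0.20, adjusted p = 0.0315, up to 0.144 without Z2, Z4, Z5, M2, M4 or M5) were lower (background 2.36%), and among 11 dendritic cell genes Clec9a (-0.76 ± 0.20, adjusted p = 0.0212, up to 0.0944 without Z2, Z4, M1 or M2). Of 20 chemokine genes, Ccl6, Ccl9 and Cxcl16 (-0.51 ± 0.12) were lower (background 2.36%). In the stroma, Fn1 (0.79 ± 0.21, adjusted p = 0.0231, up to 0.0829 without Z3, Z5, M3, M4 or M5) and Col6a3 (0.43 ± 0.12, adjusted p = 0.0222, up to 0.0942 without Z4, Z5 or M1) were higher among 19 fibroblast genes (background 1.76%), and the differences with the muscle covariate were 0.16 and 0.31. The muscle genes Myot (1.70 ± 0.36, adjusted p = 0.00335) and Acta1 (1.41 ± 0.37, adjusted p = 0.0202, up to 0.0807 without Z5 or M2), named among the largest rises, were higher in ZBP1-deficient mice. Of the calls in this paragraph, none of Mzb1, Cd79a, Clec9a, Cxcl16, Fn1, Col6a3, Myot and Acta1 passed within title numbers under 100 (adjusted p of 0.0614 to 0.454). With the muscle covariate Myot and Acta1 passed, and the other 6 had 0.142 to 0.796.

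**Figure D5:**
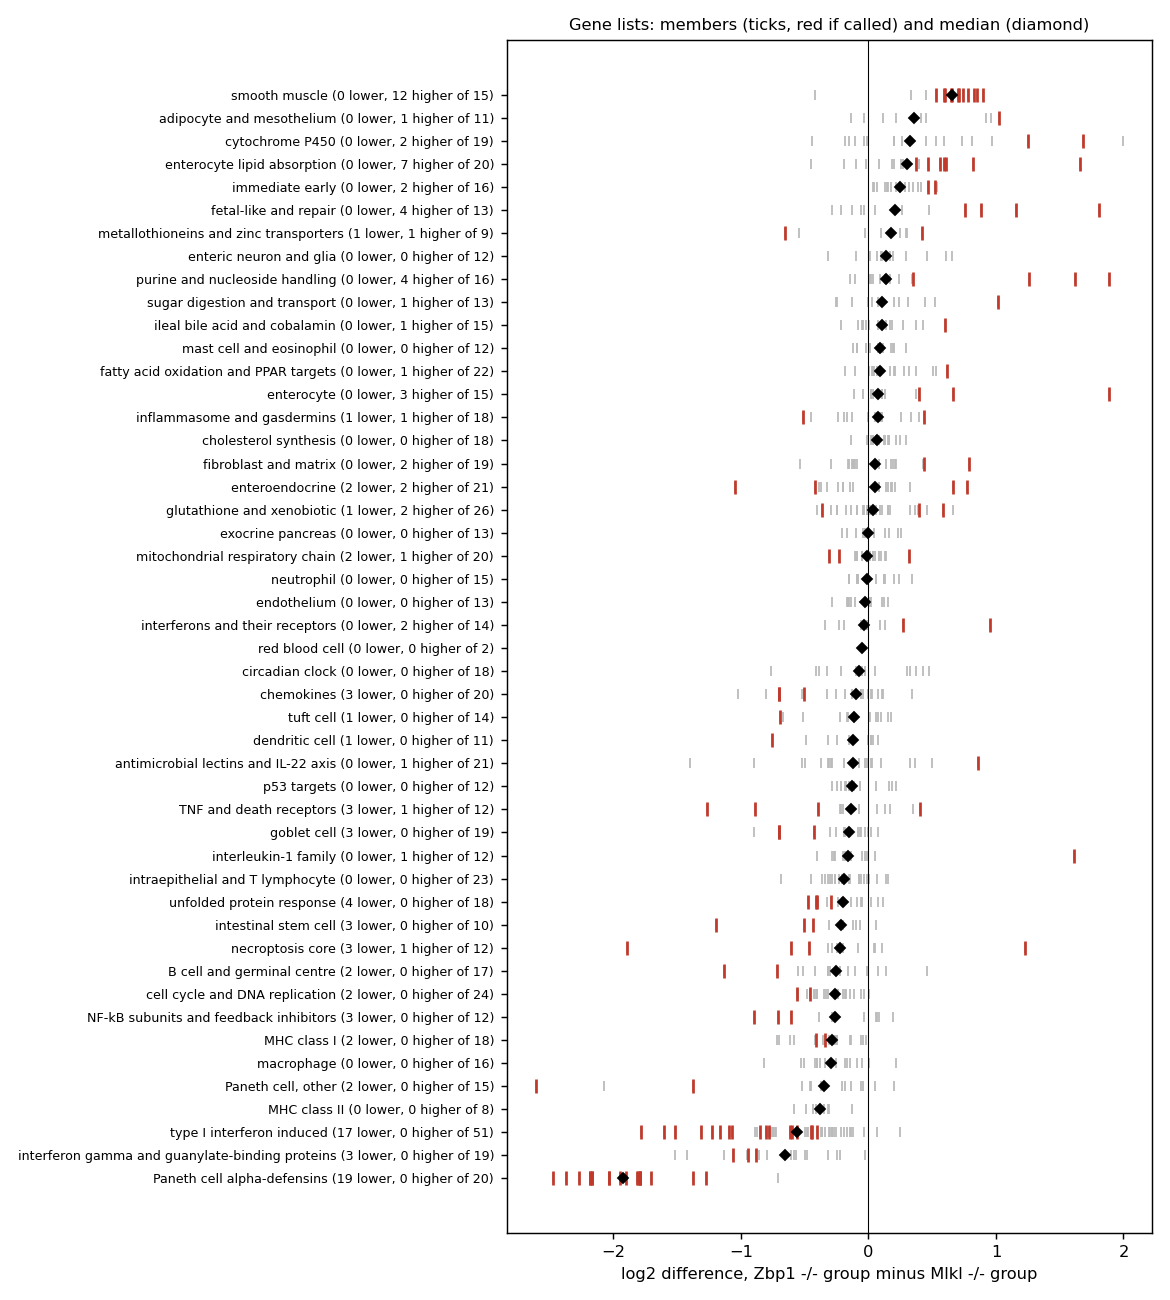
Log2 difference (x axis) of each measured member of 48 gene lists (ticks, red where called) with the list median (diamond) and, beside each name, the number lower and higher of those measured. Alpha-defensins sit furthest left with a median of -1.92 and 19 of 20 called, and smooth muscle furthest right with 12 of 15 called.

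Smaller lists held 1 to 3 calls (background 1.76% higher and 2.36% lower). The immediate early genes Jun (0.52 ± 0.10, adjusted p = 0.0017) and Btg2 (0.46 ± 0.12, adjusted p = 0.02, up to 0.115 without Z4, M1 or M3) were higher, 2 of 16. Among 26 glutathione and xenobiotic genes, Sult1b1 (0.59 ± 0.13) and Mgst3 (0.39 ± 0.09) were higher and Ugt2b34 (-0.37 ± 0.10, adjusted p = 0.0301, up to 0.126 without Z4, Z5, M2, M3 or M5) lower. In the respiratory chain, Cox4i1 (0.32 ± 0.08, adjusted p = 0.0115, 0.0558 without M1) was higher and Uqcrc2 (-0.31 ± 0.07, adjusted p = 0.0103, 0.062 without Z4) and Ndufa4 (-0.23 ± 0.07, adjusted p = 0.0465, up to 0.141 without Z1, Z2, Z3, Z5, M2, M3, M4 or M5) were lower, 3 of 20. Among 9 metallothionein and zinc transporter genes 7 did not pass, Slc30a2, of Paneth cell granules, was lower (-0.66 ± 0.18, adjusted p = 0.0309, up to 0.13 without Z2, Z3, Z5, M1, M2 or M4) and Slc39a5 was higher (0.42 ± 0.12, adjusted p = 0.0369, up to 0.132 without Z2, Z3, Z4, Z5, M1, M2, M3 or M4). Acot1, of fatty acid oxidation, was higher (0.62 ± 0.19, adjusted p = 0.0467, up to 0.132 without Z1, Z4, Z5, M1, M2, M3, M4 or M5), 1 of 22 genes, and so was the lipid droplet gene Cidec (1.03 ± 0.23, adjusted p = 0.00593), 1 of 11 adipocyte and mesothelium genes. None of these 12 genes passed within title numbers under 100, where Jun was nearest (adjusted p = 0.0628) and Ugt2b34 furthest (0.403). With the muscle covariate Jun, Sult1b1, Ndufa4 and Cidec passed, and the other 8 had 0.0746 (Btg2) to 0.314 (Slc30a2).

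A germline knockout can carry DNA of the strain in which it was made around the deleted gene, so the 20 measured genes on each side of both loci were counted. Next to Zbp1, 1 of 40 genes was called (2.5%), the predicted gene Gm6710 (-0.37 ± 0.11, adjusted p = 0.0402, up to 0.179 without Z1, Z5, M1, M2, M3 or M5). Next to Mlkl, 2 of 40 were called (5.0%), Ddx19b (0.33 ± 0.09, adjusted p = 0.0233, up to 0.0797 without Z4, Z5 or M1) and Tmem170 (-0.41 ± 0.08). The shares are near the background of 4.12%, and none of the 3 passed within title numbers under 100 or with the muscle covariate. Of 114 named genes 99 were called. Within title numbers under 100, 31 of these calls were kept, and with the muscle covariate 46. The calls of 28 genes were kept in all 10 fits without 1 array and all 12 other alternatives, among them Zbp1, Mlkl, Ada, Susd2, Adh1, Nfkb2, Nfkbia, Ifnlr1, Il22ra1, Ifit2 and Clca3b.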

How the data were processed

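RNA of whole ileum was hybridised to 45 one-colour arrays, 5 in each of 9 groups. The authors deposited 1 table of log2 intensities, already normalized; how is not given in the sources used here. Per the submitters' processing notes, Affymetrix Expression Console and Transcriptome Analysis Console were used. Of 22142 probes, 19527 had 1 gene symbol, 0 had several and 2615 had none. For the 33 genes with several probes the probe with the highest mean over all arrays was kept, which left 19494 genes. Arrays give no read depth, and their number (5 a group) limits the precision.

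Groups came from the genotype in each title. The model, 1 mean for each of the 9 groups, used all 45 arrays (limma 3.58.1, R 4.3.3, lmFit and eBayes, 36 residual degrees of freedom), and p-values were adjusted by Benjamini-Hochberg over 19494 genes. Errors beside a difference are standard errors of that fit, and errors beside a level are SDs (n = 5). The fit was tested on simulated data.

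The members and the gene lists were chosen with earlier results of these data known. Named genes were the targeted genes with Casp8 and Ripk3, the 10 largest rises and falls among called genes without overlap (predicted genes left out), up to 3 called members per list or, with none called, its brightest member, and called genes among the 20 on each side of Zbp1 and Mlkl. Added after values were seen were 7 genes: those of the 5 smallest p-values in each direction that the rule had not named, Clca3a1 and Clca3a2. Members with values that did not pass, given for context, were also chosen then. Alternatives were the 10 arrays fitted alone, title numbers as a covariate or under 100 only, a sex and a clock index, other scalings, a filter on dim genes, the mean of probes, array weights, a trended robust fit, each array left out and, added later, the smooth muscle mean as a covariate.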

Additional observations from a re-analysis of the deposited data

Results flagged for a closer look

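In 14 of 324 sets of 5 arrays (named genes and list means in each genotype), 1 array stood apart from its group, with a gap to the next array above 0.71 of the group's range. Chance gives about 1 in 20. In MLKL-deficient mice, replicate 1 was lowest for Ifngr2 (9.24) and Gsdmd (8.96) and highest for the exocrine pancreas list (mean log2 level 5.35). Replicate 2 was lowest for Tapbp (10.11) and for Gzma, a granule protease of cytotoxic lymphocytes (8.70). Replicate 4 was highest for H2-Ab1 (11.63) and lowest for the neutrophil elastase gene Elane (5.89) and the neuronal receptor gene Ret (6.90).

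In ZBP1-deficient mice, replicate 1 was lowest for S100a6 (9.40, with the others from 10.08) and highest for the red cell gene Slc4a1 (7.97) and the red blood cell list (6.90). Replicate 3 was lowest for the mast cell and eosinophil list (4.77) and highest for the fibroblast and matrix list (8.05). Replicate 4 was highest for Cyp2c66 (8.23, with the next at 7.54).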

How the results depend on the processing

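The number of called genes was 804 (344 higher, 460 lower). It was 323 (160 and 163) with the 10 arrays fitted alone, 99 (40 and 59) within title numbers under 100, and 264 (123 and 141) with the smooth muscle mean as a covariate, an alternative chosen after seeing the data. Leaving out 1 array at a time gave 467 to 1019 genes, 216 to 330 higher and 247 to 689 lower. The remaining alternatives gave 775 to 1092, the latter among 11411 genes after dim genes were left out. Of the 804 genes, 280 (34.8%) were also called in the 10 arrays alone, 96 (11.9%) under 100 and 232 (28.9%) with the muscle covariate. All 804 kept their direction in every alternative that tested them, except 8 with the muscle covariate. Among the 99 called named genes Des alone changed direction, to -0.0816 with that covariate, whose list holds Des; some named genes that did not pass, such as Fadd, Ripk3 and H2-Ab1, also changed sign. For other values the cause was not tested. The sex index used Eif2s3y, Kdm5d and Uty alone, since the other planned genes had no named probe. No paired analysis was possible because no title number occurs in both groups.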
